A study of Homo sapiens with 26 samples.

Results

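TM4SF18 and TM4SF1 are neighbouring genes on human chromosome 3 that encode membrane proteins of the L6 family. They were taken as the rows of the deposited count table that carry their symbols, 2 of 58039 genes, and they are described across all 9 groups of the study. The libraries came from HCT116, a human colorectal carcinoma cell line. The groups were CDK8KO-C1 and CDK8KO-C2 (n = 3 each), sublines labelled as CRISPR knockouts of CDK8, and CDK19KO-C1 and CDK19KO-C2 (n = 3 each), sublines labelled as knockouts of CDK19. DKO-C1+JQ1 (n = 2), DKO-C1 (n = 3) and DKO-C2 (n = 3) were labelled as knockouts of both genes, and HCT116+JQ1 (n = 3) and HCT116 (n = 3) as control cells. All cells were grown in DMEM with serum, and JQ1 is the only drug named. The titles number the sublines C1 and C2. The sources used here do not say whether each is a clone, nor give the edited sites or the dose and time of JQ1.

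The L6 family is named after the L6 tumour antigen, which is TM4SF1. Its proteins cross the membrane 4 times, as tetraspanins do, but belong to a separate family. TM4SF1 is known from carcinoma cells and from endothelium, where it sits in membrane microdomains and cell protrusions and takes part in migration. Less is known of TM4SF18. CDK8 and its paralog CDK19 are alternative kinases of Mediator, the complex that links transcription factors at enhancers to RNA polymerase II. JQ1 is a BET bromodomain inhibitor.

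Both genes lie on the minus strand of chromosome 3 in build hg38. TM4SF18 (ENSG00000163762) covers 149318498 to 149334414 and TM4SF1 (ENSG00000169908) covers 149369022 to 149377865. A gap of 34607 bases separates their bodies, and 43451 bases separate their 5′ ends. The union of annotated exons measures 4482 bases for TM4SF18 and 3668 bases for TM4SF1. No word of 50 bases is shared between their transcripts, so reads of one are not expected to be counted for the other. Each gene overlaps an antisense gene at its exons: TM4SF18 shares 141 exon bases with AC093001.1, which had 38 counts in all libraries together, and TM4SF1 shares 88 exon bases with TM4SF1-AS1, which had 11. The strand setting of the counting is not given in the sources used here.

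The promoters are shown because the members stood high together in the double knockout. They are RefSeq sequences of GRCh38.p14 around the RefSeq gene starts, chr3:149333587-149333886 for TM4SF18 and chr3:149377600-149377899 for TM4SF1, both on the minus strand and written 5′ to 3′. The RefSeq starts differ from the annotated 5′ ends above: the TM4SF18 window lies wholly inside the gene body given there, and the TM4SF1 window mostly inside. Capitals mark CATTCC, the core letters bound by TEAD factors, or its reverse complement GGAATG.
TM4SF18: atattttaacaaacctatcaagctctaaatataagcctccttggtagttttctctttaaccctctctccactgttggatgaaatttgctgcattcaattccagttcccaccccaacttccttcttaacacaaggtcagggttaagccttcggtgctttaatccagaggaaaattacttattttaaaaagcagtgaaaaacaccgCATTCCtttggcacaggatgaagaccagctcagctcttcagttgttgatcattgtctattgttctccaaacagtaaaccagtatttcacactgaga
TM4SF1: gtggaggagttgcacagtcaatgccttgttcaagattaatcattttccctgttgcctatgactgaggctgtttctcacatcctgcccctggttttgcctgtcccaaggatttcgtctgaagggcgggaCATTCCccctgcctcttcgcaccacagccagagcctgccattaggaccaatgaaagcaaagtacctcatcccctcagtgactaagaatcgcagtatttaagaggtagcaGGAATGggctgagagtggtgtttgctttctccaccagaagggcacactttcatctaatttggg
The TM4SF18 promoter held 1 match, which starts at position -46 from the gene start. The TM4SF1 promoter held 2 matches, at -122 and, as the reverse complement, at -13. Of 34796 RefSeq promoters of the same length, 14% held at least 1 match on either strand and 1.38% held 2 or more. The other motifs searched on both strands had no match in either window. They were TGANTCA (AP-1, in 7.73% of promoters), CTTTGA (TCF/LEF, in 12.9%) and TATAAA (the TATA box, in 11.6%), and none of the motifs searched overlaps another of these matches.

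Gene counts ran from 17700864 to 19093094 per library, and levels below are CPM, the count scaled to a common library size with TMM factors. CDK8 RNA stood at 43.6 to 48.3 CPM in CDK8KO and 35.4 to 40.4 CPM in DKO, against 50.1 to 52.2 CPM in HCT116. CDK19 RNA stood at 17.5 to 26.9 CPM in CDK19KO and 31.8 to 41.3 CPM in DKO, against 24.4 to 29.9 CPM in HCT116. These gene counts are no check of the edits. The libraries carried epithelial RNA: EPCAM was at 239 to 413 CPM and KRT8 at 2049 to 4504 CPM. In contrast, CDX1 had a count in 1 library and VIL1 stayed at 0.261 CPM or less. All 6 endothelial markers averaged under 1 CPM in every group. CDH5, which defines endothelium, had a count in 3 libraries, TIE1 in 10 and TEK in 13. VWF had a count in 23, KDR in 24 and PECAM1 in 25. Of the 8 fibroblast markers, PDGFRA and LUM were at 0 in all 26 libraries and COL1A1 stood at 13.5 to 30.4 CPM. None of the 4 leukocyte markers averaged 1 CPM in any group. Scaling by the ERCC spike-in in place of TMM moved the median log2 fold change of all tested genes against HCT116 by -1.22 in CDK8KO, by -1.65 in CDK19KO and by -0.90 in DKO. It moved it by -0.37 for JQ1 in HCT116 and by -0.27 for JQ1 in DKO-C1. A spike-in is labelled for control and DKO libraries alone, although all 26 libraries held ERCC counts.

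TM4SF18 and TM4SF1 RNA was highest in the double knockout. TM4SF18 was also higher than control in all 4 single-knockout sublines, though with the ERCC scaling in CDK8KO-C1 and CDK19KO-C2 alone. TM4SF1 had no count in any of the 6 control libraries, with or without JQ1. The pair was selected on measured values, the fold changes of an earlier naming. It took the 6 largest rises and the 6 largest falls among called genes with a group mean of at least 5 CPM whose libraries did not overlap, and whose sublines, where both were compared, were both called the same way. TM4SF18 was picked there in CDK8KO (rank 4), in DKO (rank 5) and for JQ1 in DKO-C1 (rank 4 of the falls), and TM4SF1 in DKO (rank 1). Just outside, TM4SF18 ranked 7 in CDK19KO. Values in the comparisons that picked a member are therefore given as a description, with no test.

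TM4SF18 was measured at 219, 210 and 214 CPM in DKO-C1. In DKO-C2 it was at 262, 246 and 249 CPM. HCT116 had 1.89, 2.69 and 2.51 CPM. No DKO library came near a control library. The mean was 90.6-fold that of HCT116 in DKO-C1 and 107-fold in DKO-C2 (log2 fold changes 6.50 ± 0.0914 and 6.74 ± 0.0909, SE). With the ERCC scaling the log2 fold changes were 5.49 and 5.95.

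TM4SF1, the better known member, had 348, 335 and 336 counts in DKO-C1 and 926, 930 and 961 counts in DKO-C2, against 0 counts in each of the 3 HCT116 libraries. These counts are 17.98 ± 0.480 CPM in DKO-C1 and 50.1 ± 0.641 CPM in DKO-C2 (SD, n = 3 each). A count of 0 over the HCT116 libraries allows up to 3 counts, or 0.0536 CPM, for counting error only. Set against that limit, TM4SF1 was at least 336-fold higher in DKO-C1 and at least 935-fold higher in DKO-C2 than in HCT116. Without any 1 of the 3 HCT116 libraries the bounds, 8.39 and 9.87 on the log2 scale, dropped to 7.79 to 7.82 and 9.27 to 9.30. TM4SF1 passed the filter on low counts through the DKO groups, and of its 3955 counts 3836 lay in untreated DKO libraries. In bulk RNA, more cells that express a gene and more RNA per cell cannot be told apart.

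**Figure D1:**
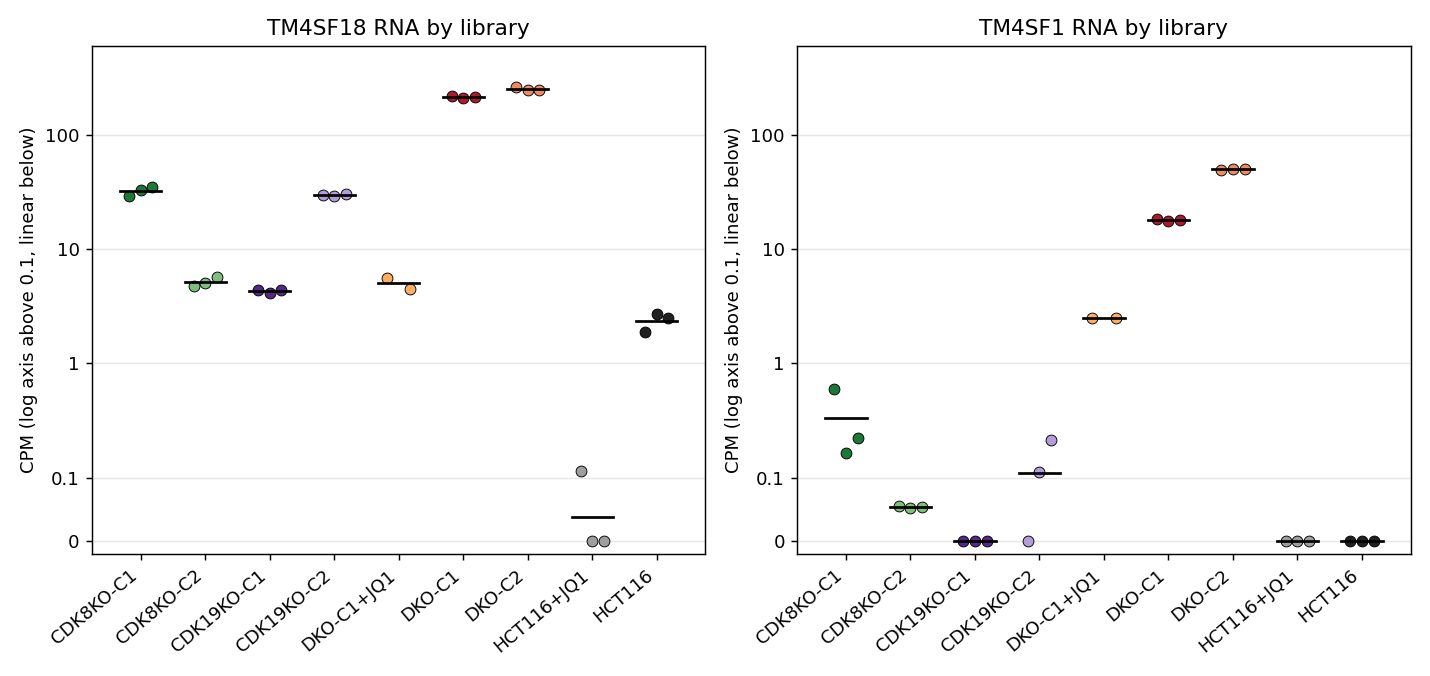
CPM of TM4SF18 (left) and TM4SF1 (right) in each library, by group, on an axis that is logarithmic above 0.1 and linear below. Points are libraries and bars group means; the DKO-C1 and DKO-C2 points lie above all others for both genes, and TM4SF1 lies at 0 in CDK19KO-C1, HCT116+JQ1 and HCT116.

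In the single knockouts TM4SF18 differed between sublines of one genotype. It was at 29.3, 32.9 and 35.3 CPM in CDK8KO-C1 and at 4.80, 5.04 and 5.75 CPM in CDK8KO-C2. CDK19KO-C1 had 4.43, 4.12 and 4.40 CPM, and CDK19KO-C2 had 30.0, 29.4 and 30.3 CPM. The high subline was thus C1 for CDK8KO and C2 for CDK19KO, and the libraries of the sublines did not overlap within either genotype. The means over HCT116 were 13.7-fold in CDK8KO-C1, 2.20-fold in CDK8KO-C2, 1.83-fold in CDK19KO-C1 and 12.6-fold in CDK19KO-C2. These comparisons and those of DKO share the same 3 HCT116 libraries.

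CDK19KO did not pick TM4SF18, which ranked 7 there, and 43.0% of 17198 tested genes were called at an adjusted p under 0.05. The HCT116 libraries are those of the comparisons that picked it, so the p values below are not independent of that selection. As the mean of both sublines TM4SF18 rose by a log2 fold change of 2.27 ± 0.121 against HCT116 (adjusted p = 1.33e-17). It was higher in each library of both sublines, but this SE and p leave out the spread between the sublines. By subline the rise was 3.66 ± 0.109 in CDK19KO-C2 (adjusted p = 1.36e-25) and 0.87 ± 0.156 in CDK19KO-C1 (adjusted p = 1.79e-05), where 42.4% and 46.1% of genes were called. With the ERCC scaling CDK19KO-C1 turned to -0.89 (adjusted p = 5.93e-05, in a range over alternatives of 2.78e-07 to 0.000619) and CDK8KO-C2 to -0.12, while CDK19KO-C2 stayed higher at 2.12 and CDK8KO-C1 at 2.59. The mean of both CDK19KO sublines was 0.62 with that scaling, still called. Whether CDK8KO-C2 and CDK19KO-C1 lie above or below HCT116 thus depends on the scaling.

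The sublines were compared with each other directly. The naming ranked genes on the mean of both sublines over HCT116, not on these differences, though it used the same libraries. TM4SF18 was higher in CDK8KO-C1 than in CDK8KO-C2 by 2.64 ± 0.0921 on the log2 scale (adjusted p = 3.04e-23), with 21.1% of genes called. It was lower in CDK19KO-C1 than in CDK19KO-C2, with a log2 fold change of -2.79 ± 0.0972 (adjusted p = 1.16e-23), with 48.0% of genes called. Between DKO-C1 and DKO-C2, where 9.42% were called, it differed by -0.24 ± 0.0541 (adjusted p = 0.00262). All 3 kept their direction and call with the ERCC scaling, at 2.71, -3.02 and -0.46.

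TM4SF1 counts in the single knockouts were few. CDK8KO-C1 had 11, 3 and 4 counts and CDK8KO-C2 had 1 count in each library. CDK19KO-C1 had none, and CDK19KO-C2 had 0, 2 and 4 counts. Since 1 library held most counts in CDK8KO-C1 and in CDK19KO-C2, no fold is given. The sublines with more TM4SF1 counts were those with more TM4SF18.

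Between the double-knockout sublines TM4SF1 differed by more than TM4SF18. It was lower in DKO-C1 than in DKO-C2, with a log2 fold change of -1.48 ± 0.0814 (adjusted p = 1.35e-14), which puts DKO-C1 at 35.9% of DKO-C2. These libraries also picked TM4SF1, through the mean of both sublines over HCT116 and not through their difference. For TM4SF18, DKO-C1 was at 84.8% of DKO-C2. The difference between these 2 genes was not tested.

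Levels of the members can be compared per kilobase of exon. TM4SF18 stood at 47.8 and TM4SF1 at 4.90 CPM per kb in DKO-C1, a ratio of 9.75. In DKO-C2 they stood at 56.3 and 13.7 CPM per kb, a ratio of 4.13, and in DKO-C1+JQ1 at 1.12 and 0.683 CPM per kb, a ratio of 1.64. They stood at 7.25 and 0.0901 CPM per kb in CDK8KO-C1 and at 6.67 and 0.0298 CPM per kb in CDK19KO-C2, where TM4SF1 rests on 18 and 6 counts. TM4SF18 was the higher member in every library where either had a count.

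**Figure D2:**
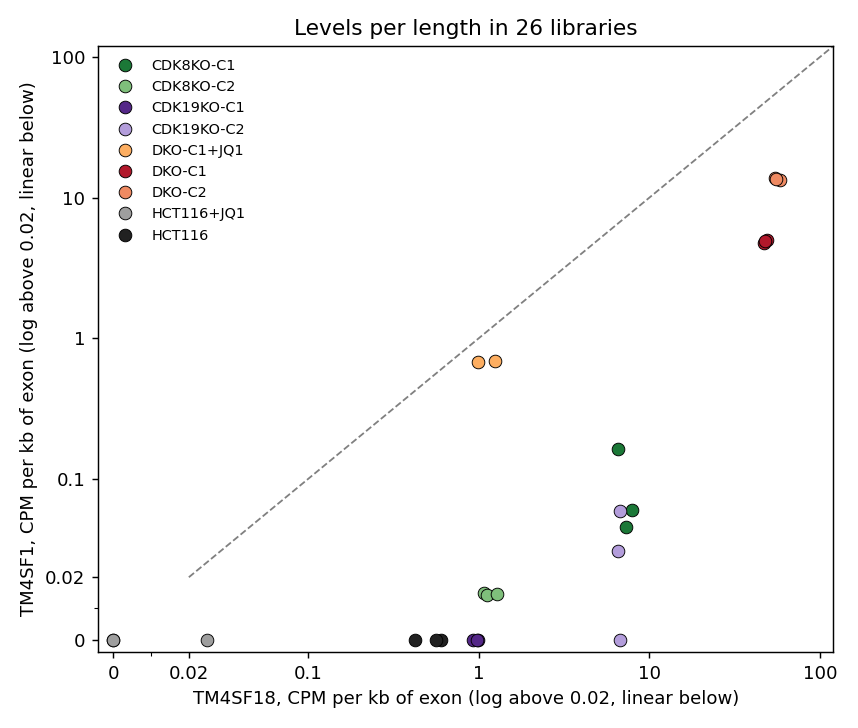
TM4SF1 against TM4SF18 in CPM per kb of exon, 1 point per library, coloured by group, on axes that are logarithmic above 0.02 and linear below; the dashed line marks equal levels. All points with a count lie under the line, and the DKO-C1+JQ1 libraries lie closest to it.

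The order of group means for TM4SF18 ran from HCT116+JQ1 (0.0382 CPM) through HCT116 (2.36), CDK19KO-C1 (4.32), DKO-C1+JQ1 (5.02), CDK8KO-C2 (5.196), CDK19KO-C2 (29.9), CDK8KO-C1 (32.5) and DKO-C1 (214) to DKO-C2 (252). The ranges of libraries overlapped between DKO-C1+JQ1 and CDK8KO-C2 and between CDK19KO-C2 and CDK8KO-C1; the other neighbours in the order did not overlap. For TM4SF1 the order above the groups at 0 was CDK8KO-C2 (0.0536 CPM), CDK19KO-C2 (0.109), CDK8KO-C1 (0.331), DKO-C1+JQ1 (2.51), DKO-C1 (17.98) and DKO-C2 (50.1). There the range of CDK19KO-C2 overlapped those of CDK8KO-C2 and CDK8KO-C1, and no DKO group overlapped another group.

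JQ1 was compared with no JQ1 in DKO-C1 and in HCT116, to ask how the BET inhibitor acted with and without the kinases. TM4SF18 was at 5.59 and 4.45 CPM in DKO-C1+JQ1, against 219, 210 and 214 CPM in DKO-C1. That leaves 2.34% of its DKO-C1 level (exact binomial 95% interval 2.01% to 2.71%, counting error only), a log2 fold change of -5.41 ± 0.0968 given with no test. In HCT116+JQ1, TM4SF18 had 2, 0 and 0 counts, against 36, 49 and 47 counts in HCT116. That leaves 1.61% of its HCT116 level, with an interval of 0.193% to 5.94%. This fall was called (log2 fold change -5.72 ± 0.444, adjusted p = 1.39e-13), in a comparison in which 56.0% of genes were called. The counting interval, a fall of 16.8-fold to 517-fold, is wider than that ±. The HCT116 libraries are also those of comparisons that picked TM4SF18, so that p value is not independent of the selection.

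Both TM4SF18 counts of HCT116+JQ1 lay in replicate 1. Without that library the group was at 0, and the fitted log2 fold change of -8.44 then depends on the prior count. The JQ1 responses of TM4SF18 in DKO-C1 and HCT116 differed by 0.31 ± 0.533 on the log2 scale, given with no test since its DKO-C1 arm picked TM4SF18. With so few counts in HCT116+JQ1 this ± understates the counting error. Whether the responses were alike therefore cannot be said. Without HCT116+JQ1 replicate 1 the difference was 3.03, and without replicate 3 it was -0.21.

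TM4SF1 had 46 counts in each of the 2 DKO-C1+JQ1 libraries, against 348, 335 and 336 in DKO-C1. It was at 13.9% of its DKO-C1 level (interval 11.1% to 17.3%), a log2 fold change of -2.84 ± 0.146 given with no test. In HCT116 the gene was at 0 with and without JQ1, so no fold and no difference of responses can be given.

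Among JQ1-treated libraries, the double knockout was compared with control. TM4SF18 was at 5.59 and 4.45 CPM in DKO-C1+JQ1, against 0.115, 0 and 0 CPM in HCT116+JQ1. The ratio of 132 has an exact binomial 95% interval of 36.0 to 1097. The log2 fold change was 6.81 ± 0.383 (adjusted p = 8.29e-18), where 46.7% of genes were called. That ± is narrower than the counting interval of the ratio. TM4SF18 was picked partly on these DKO-C1+JQ1 libraries, so that p value is not independent of the selection. Without HCT116+JQ1 replicate 1 the fitted value was 9.53 and still called. TM4SF1 was at 2.52 and 2.49 CPM in DKO-C1+JQ1 and at 0 in HCT116+JQ1, at least 43.97-fold higher.

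Marker sums also differed between groups. The summed colon epithelial markers ran from 5978 to 6524 CPM in DKO-C1 and from 6699 to 7606 CPM in DKO-C2, against 3945 to 4514 CPM in HCT116. The summed fibroblast markers, mostly COL1A1, ran from 24.7 to 29.6 CPM in DKO-C1 and from 23.7 to 31.5 CPM in DKO-C2, against 13.8 to 15.5 CPM in HCT116. In the single knockouts the fibroblast sum ran from 21.9 to 24.3 CPM in CDK8KO-C1, 15.3 to 18.03 CPM in CDK8KO-C2, 15.3 to 15.9 CPM in CDK19KO-C1 and 19.4 to 20.3 CPM in CDK19KO-C2, so the higher subline was the one with more TM4SF18. The epithelial sum was 6995 to 7084 CPM in CDK8KO-C1 and 5629 to 5880 CPM in CDK8KO-C2, but overlapped between CDK19KO-C1 (5047 to 5296 CPM) and CDK19KO-C2 (4968 to 5099 CPM). With JQ1 the epithelial sum was higher, 6997 to 7127 CPM in DKO-C1+JQ1 and 4706 to 5162 CPM in HCT116+JQ1, while TM4SF18 was lower in both. The fibroblast sum was 21.4 to 24.6 CPM in DKO-C1+JQ1 and 16.3 to 20.8 CPM in HCT116+JQ1. The endothelial sum stayed between 0.217 and 1.23 CPM in all libraries. The part of these markers in the levels of TM4SF18 and TM4SF1 was not tested.

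The genes around the members show whether the whole stretch of chromosome moved with them. The list holds 39 genes, every annotated gene within 500 kb of the pair and further fixed names, of which 19 are protein-coding; 12 of these and 1 pseudogene had enough counts to be tested. TM4SF4, the other L6 gene in the stretch, lies on the plus strand between TM4SF1 and WWTR1 and was not tested, with 6 counts in all. The ceruloplasmin gene CP had 29 counts in all. SERP1 overlaps EIF2A and SELENOT on the other strand, so without a known strand setting their counts are uncertain.

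In DKO, 8 of the 12 protein-coding neighbours rose and 3 fell, with a median log2 fold change of 0.26, while with the ERCC scaling 1 rose and 11 fell. Of all tested genes 61.6% were called, 29.5% higher and 32.1% lower, with a median of -0.02. The largest rise was that of WWTR1, which encodes TAZ, the paralog of YAP that drives TEAD-bound genes. Its 5′ end lies 358.8 kb from that of TM4SF1, toward the end of the long arm. WWTR1 was at 172, 161 and 161 CPM in DKO-C1 and at 199, 175 and 203 CPM in DKO-C2, against 73.6, 73.8 and 70.9 CPM in HCT116. The groups did not overlap, and the rise was 1.29 ± 0.0511 (adjusted p = 6.52e-23), or 0.38 (adjusted p = 0.00503) with the ERCC scaling.

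The other protein-coding neighbours moved less than WWTR1 in DKO with TMM. The tested pseudogene UBQLN4P1 moved more, with a log2 fold change of -4.66 ± 0.113. TSC22D2, a leucine zipper protein, rose by 0.58 ± 0.0574 (adjusted p = 2.77e-11) and HPS3, which takes part in making lysosome-related organelles, by 0.56 ± 0.0571 (adjusted p = 8.76e-11). COMMD2 rose by 0.43 ± 0.0565 and the helicase-like HLTF, of DNA damage tolerance, by 0.29 ± 0.0578 (adjusted p = 2.42e-08 and 3.89e-05). All 4 turned to falls with the ERCC scaling, at -0.32, -0.34, -0.48 and -0.61. The translation initiation factor EIF2A fell, with a log2 fold change of -0.34 ± 0.0370 (adjusted p = 4.16e-10), as did the actin-binding profilin PFN2, at -0.28 ± 0.0430 (adjusted p = 5.61e-07), and both also fell with the ERCC scaling. SELENOT (0.30), GYG1 (0.24) and RNF13 (0.19) rose and SERP1 (-0.19) fell, while all 4 fell with the ERCC scaling, and SIAH2 was not called (-0.08, adjusted p = 0.174). None of these protein-coding neighbours came near the log2 fold changes of TM4SF18 in the same libraries.

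**Figure D3:**
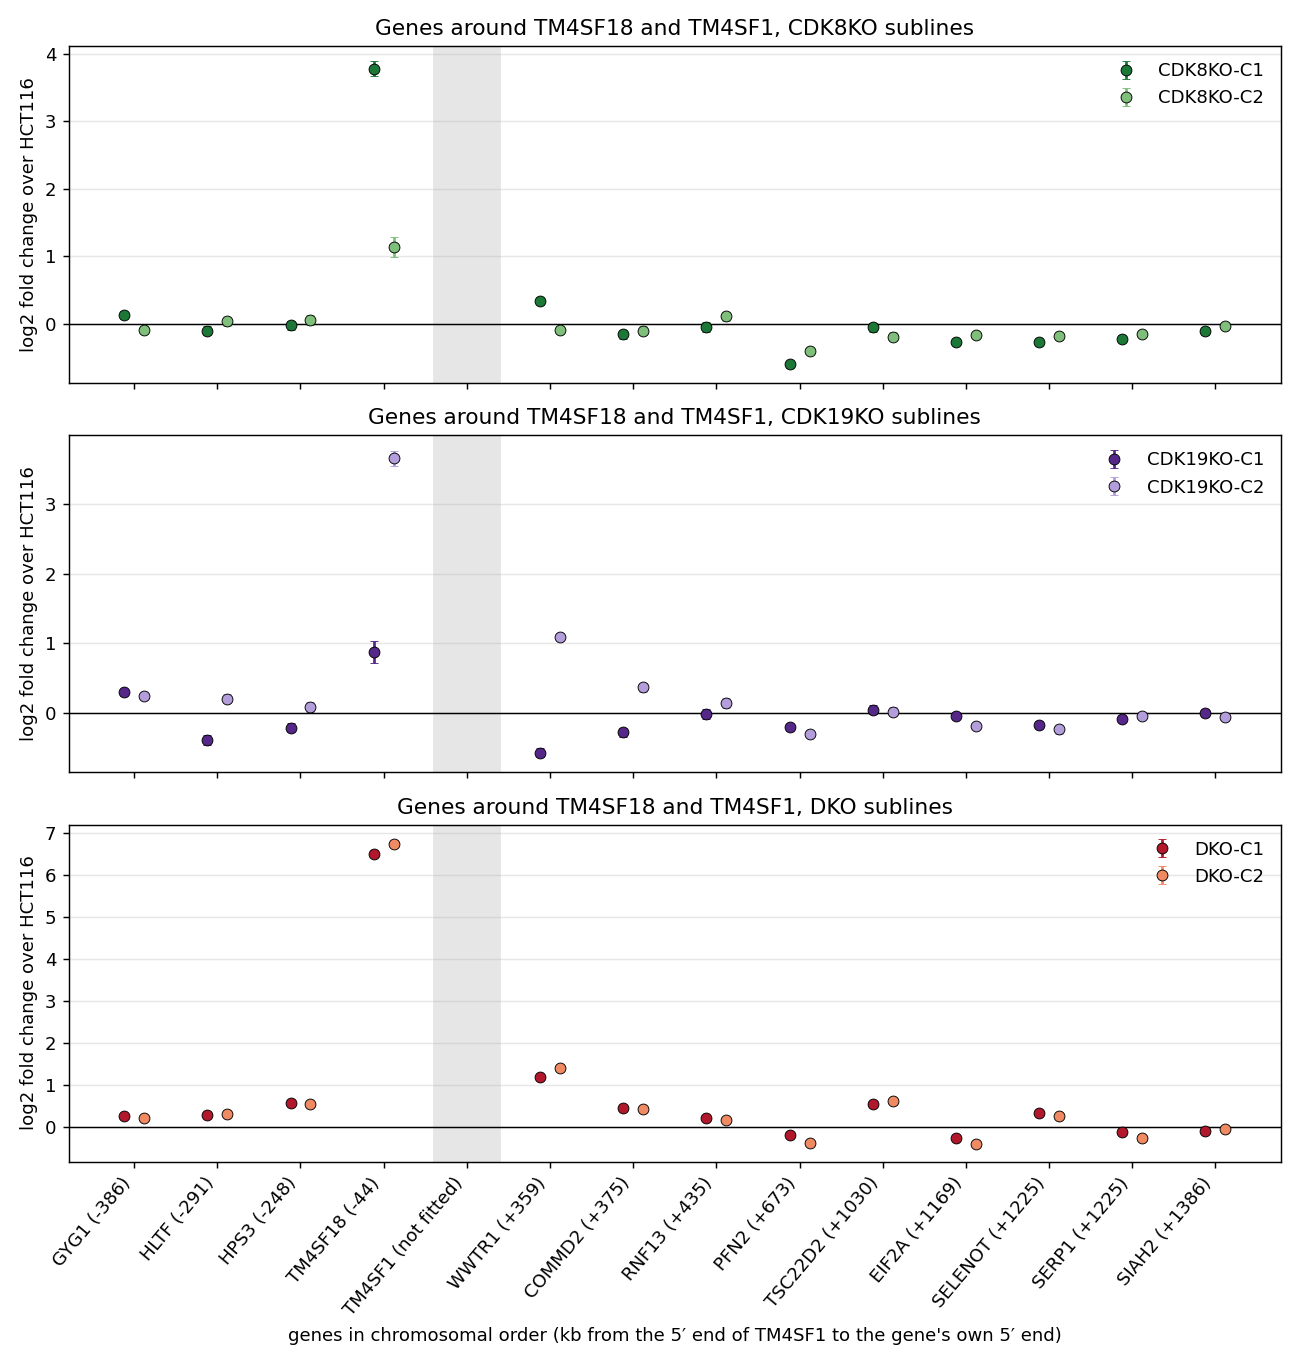
Log2 fold change over HCT116 of TM4SF18 and the tested protein-coding neighbours, in chromosomal order, with 1 panel per genotype and 1 colour per subline. Bars are the approximate SE. Distances are in kb from the 5′ end of TM4SF1, which is shaded because it has no finite fold. TM4SF18 is the highest point in every subline shown, and WWTR1 follows it in CDK8KO-C1, CDK19KO-C2, DKO-C1 and DKO-C2.

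Between the CDK19KO sublines, 5 of 12 protein-coding neighbours were called, 1 higher and 4 lower in CDK19KO-C1, with a median of -0.01; with the ERCC scaling 0 were higher and 5 lower. Of all genes 23.8% were higher and 24.2% lower there. WWTR1 was at 51.3, 48.7 and 46.3 CPM in CDK19KO-C1 and at 151, 155 and 160 CPM in CDK19KO-C2. It was lower in CDK19KO-C1 by a log2 fold change of -1.67 ± 0.0591 (adjusted p = 1.80e-23), like TM4SF18 in the same pair. COMMD2 (-0.65 ± 0.0663, adjusted p = 1.98e-10), HLTF (-0.60 ± 0.0677, adjusted p = 2.36e-09) and HPS3 (-0.29 ± 0.0694, adjusted p = 0.000603) were lower as well. These 4 were also lower with the ERCC scaling. GYG1, the self-glucosylating starter of glycogen, and PFN2 were not called (0.05 ± 0.0564 and 0.09 ± 0.0504, adjusted p = 0.4998 and 0.126).

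Against HCT116, WWTR1 fell in CDK19KO-C1 (-0.58 ± 0.0607, adjusted p = 6.27e-10) and rose in CDK19KO-C2 (1.09 ± 0.0568, adjusted p = 3.85e-18), while with the ERCC scaling it was lower in both, at -2.34 and -0.45. In CDK19KO-C1 7 of 12 protein-coding neighbours were called, 1 higher and 6 lower, and in CDK19KO-C2 7 were called, 4 higher and 3 lower; with the ERCC scaling all 12 were lower in each. Of all genes 22.1% were higher and 24.0% lower in CDK19KO-C1, and 21.8% higher and 20.6% lower in CDK19KO-C2. Over both sublines 2 neighbours rose and 3 fell, beside 21.0% and 22.0% of all genes, and with the ERCC scaling all 12 fell. TM4SF18 and WWTR1 thus went opposite ways against HCT116 in CDK19KO-C1 with TMM and the same way with ERCC.

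Between the CDK8KO sublines 3 of 12 protein-coding neighbours were called, 2 higher and 1 lower in CDK8KO-C1; with the ERCC scaling 1 was higher. Of all genes 11.5% were higher and 9.63% lower. WWTR1 was at 87.1, 92.3 and 95.7 CPM in CDK8KO-C1 and at 68.7, 67.6 and 69.0 CPM in CDK8KO-C2. The difference was 0.42 ± 0.0582 (adjusted p = 6.34e-07), again in the direction of TM4SF18. Against HCT116, where 39.2% of genes were called for CDK8KO-C1 and 34.0% for CDK8KO-C2, WWTR1 was higher in CDK8KO-C1 (0.33 ± 0.0580, adjusted p = 1.43e-05) but lower with the ERCC scaling, at -0.86. It was not called in CDK8KO-C2 (-0.09 ± 0.0589, adjusted p = 0.259). Over both sublines 40.5% of genes were called, 19.5% higher and 21.0% lower, and of the neighbours 0 rose and 4 fell, against 12 that fell with the ERCC scaling. Between the DKO sublines 2 neighbours were higher and 1, WWTR1, lower in DKO-C1, where 3.67% of all genes were higher and 5.75% lower, and 0 were called with the ERCC scaling.

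**Figure D4:**
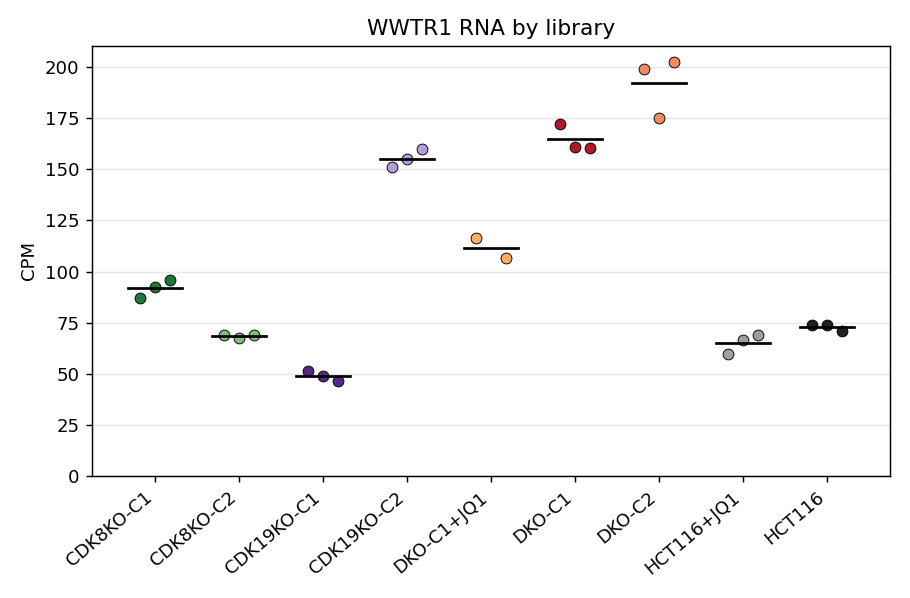
CPM of WWTR1 in each library by group on a linear axis from 0; points are libraries and bars group means. CDK19KO-C2, DKO-C1 and DKO-C2 lie highest, CDK19KO-C1 lowest, and DKO-C1+JQ1 lies between DKO-C1 and HCT116.

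With JQ1, 9 of 12 protein-coding neighbours were called in HCT116, 4 higher and 5 lower, and 8 in DKO-C1, 3 higher and 5 lower, while with the ERCC scaling 0 were higher in either and 7 and 5 were lower. Of all genes 27.0% were higher and 29.1% lower in HCT116, and in DKO-C1 50.3% were called, 24.9% higher and 25.4% lower. WWTR1 was at 116 and 107 CPM in DKO-C1+JQ1, against 172, 161 and 161 CPM in DKO-C1, a fall with a log2 fold change of -0.56 ± 0.0624 (adjusted p = 1.21e-09). In HCT116+JQ1 it was at 59.8, 66.5 and 68.9 CPM, against 73.6, 73.8 and 70.9 CPM in HCT116 (-0.16 ± 0.0594, adjusted p = 0.0196). That call was lost without HCT116+JQ1 replicate 1 (adjusted p = 0.165), HCT116 replicate 1 (adjusted p = 0.0525) or HCT116 replicate 2 (adjusted p = 0.0563). The fall was larger in DKO-C1 by -0.40 ± 0.0858 (adjusted p = 0.00147), which was not called with the ERCC scaling (adjusted p = 0.898, in a range over alternatives of 0.000129 to 0.898). GYG1 was the other neighbour whose response differed (-0.39 ± 0.0848, adjusted p = 0.00169), also not with the ERCC scaling. Of all genes 8.59% were called for a difference of responses, 3.90% with a higher and 4.70% with a lower one in DKO-C1.

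Under JQ1, WWTR1 was higher in DKO-C1+JQ1 than in HCT116+JQ1 (0.78 ± 0.0640, adjusted p = 5.23e-13), but not with the ERCC scaling, at -0.13 (adjusted p = 0.482). In that comparison 9 of 12 protein-coding neighbours were called, 6 higher and 3 lower; with the ERCC scaling 0 were higher and 11 lower. Of all genes 24.3% were higher and 22.4% lower. TSC22D2 and HPS3 rose with JQ1 in both cell types, by 0.65 ± 0.0653 and 0.47 ± 0.0657 in HCT116 and by 0.38 ± 0.0684 and 0.31 ± 0.0674 in DKO-C1 (adjusted p from 1.12e-10 to 0.000202), while neither was called in either with the ERCC scaling.

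Of the other L6 genes only TM4SF19 was tested. It lies on chromosome 3 as well, 46960.6 kb from TM4SF1, and its 149 counts are few. With JQ1 it had 1 and 0 counts in DKO-C1+JQ1, against 16, 13 and 10 in DKO-C1. Untreated DKO-C2 had 12, 16 and 14 counts. In HCT116+JQ1 it had 2, 1 and 1 counts, against 9, 5 and 6 in HCT116 (-2.14 ± 0.628, adjusted p = 0.00400). This fall was also called with the ERCC scaling. TM4SF19 passed the filter on low counts through the untreated DKO libraries, so its values in DKO, 0.99 ± 0.331 over HCT116 with TMM and 0.11 with the ERCC scaling, and for JQ1 in DKO-C1 are given with no test. TM4SF4, TM4SF5, TM4SF20 and TM4SF1-AS1 had 6, 1, 16 and 11 counts in all libraries together.

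Tetraspanins and integrins share membrane microdomains with L6 proteins, and 33 of the 39 listed genes were tested. In DKO 21 rose and 5 fell, with a median of 0.52; with the ERCC scaling 4 rose and 19 fell. Of all tested genes 29.5% were higher and 32.1% lower, with a median of -0.02. Integrin beta 8 (ITGB8), which activates latent TGF-beta, rose by 2.01 ± 0.0967 (adjusted p = 3.44e-20), the laminin receptor subunit ITGA3 by 1.497 ± 0.0463 (adjusted p = 2.02e-26) and TSPAN18 by 1.44 ± 0.0600 (adjusted p = 3.34e-22), and all 3 also rose with the ERCC scaling. With JQ1 in HCT116 20 rose and 9 fell (median 0.32), and in DKO-C1 17 rose and 8 fell (median 0.21); with the ERCC scaling 6 rose and 10 fell in HCT116 and 5 rose and 8 fell in DKO-C1. Of all tested genes 27.0% were higher and 29.1% lower in HCT116, and 24.9% and 25.4% in DKO-C1. ITGB8 and TSPAN1 were among the 3 largest changes in both, and both fell, under either scaling. The log2 fold change of ITGB8 was -1.98 ± 0.123 in DKO-C1 and -1.36 ± 0.162 in HCT116 (adjusted p = 4.54e-16 and 4.46e-09).

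Likeness of pattern was measured as Pearson's r of group mean log2 CPM over the 9 groups, among 15112 tested genes with at least 1 CPM in some group. The groups share controls and library preparation, so the values are a description. The genes most like TM4SF18 were TTC7B (r = 0.989), ANO4 (0.984), FXYD5 (0.981), CPQ (0.980) and MSANTD3 (0.977). CPQ averaged at most 1.01 CPM in any group, and its r over single libraries was 0.786. TTC7B, part of a complex that places a phosphatidylinositol kinase at the plasma membrane, had means of 72.0 CPM in DKO-C1 and 73.6 CPM in DKO-C2, against 48.0 CPM in HCT116, a much smaller range than that of TM4SF18. Its groups did not all keep the order of TM4SF18 (Spearman's rho = 0.883), while the group means of ANO4 did. ANO4 was low, from 0.742 CPM in HCT116+JQ1 to 3.56 CPM in DKO-C2, and some of its neighbouring groups lay within their spread. It averaged 1.70 ± 0.310 CPM in CDK19KO-C1 (SD, n = 3) and 1.75 ± 0.398 CPM in DKO-C1+JQ1 (SD, n = 2). FXYD5, a regulatory subunit of the sodium pump, had 186 and 203 CPM in DKO-C1 and DKO-C2, against 91.3 CPM in HCT116.

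The genes most like TM4SF1 were KLHL5 (r = 0.982), the imprinted noncoding RNA H19 (0.979), MYADM (0.978), TADA3 (0.977) and KATNAL1 (0.976). Outside the DKO groups TM4SF1 had no or few counts, so its r rests largely on the DKO groups. H19 averaged 0.464 CPM in DKO-C1+JQ1, 1.78 CPM in DKO-C1 and 1.76 CPM in DKO-C2, and was at 0 in the other 6 groups. Its Spearman's rho with TM4SF1 was 0.534. TM4SF1 and TM4SF18 had an r of 0.760 with each other, which put TM4SF1 at rank 1201 among genes compared with TM4SF18. Over the 7 untreated groups r was 0.917. WWTR1 had an r of 0.788 with TM4SF18 and 0.808 with TM4SF1.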

How the data were processed

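RNA was sequenced from 26 HCT116 libraries. The submitters' processing notes name hg38, STAR 2.5.2 and featureCounts (Subread 1.6.3), and the authors deposited raw read counts by gene. The sources used here do not give the annotation release or strand setting. 22 columns matched 1 sample each. 4 matched a group only: 3 DKO columns, taken as DKO-C2 by elimination (replicates a, b and c), and 1 of DKO-C1+JQ1 (replicate a).

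All libraries were fitted together with edgeR 4.0.16 (R 4.3.3, quasi-likelihood, 9 groups, TMM, filterByExpr with a minimum count of 10 and total of 15, 17198 genes). Calls were made on two-sided p values after Benjamini-Hochberg adjustment, at 0.05. The fit was also run on simulated counts built from each gene's mean over all libraries. That run did not model a gene at 0 in some groups and high in others, as TM4SF1 was. CPM use TMM library sizes. Exon lengths come from GENCODE v29, which matched all 58039 gene IDs, promoters from RefSeq. Members and lists were chosen with earlier results of these data known. Every tested family or neighbouring gene could be named, and the 3 largest called tetraspanin or integrin changes and the 5 most alike genes (clone-based names passed over). Alternatives included DESeq2 1.42.0, ERCC factors and left-out libraries. A planned comparison of protein sequences was not run.

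No label says that replicates were separate cultures, and each subline has its own mean in the fit. The p values therefore measure only the spread between libraries of the same group. Those given over both sublines of a genotype leave out the spread between its sublines. No pair of replicates was as close as counting alone (chi-square per degree of freedom 1.41 to 13.2).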

Additional observations from a re-analysis of the deposited data

Results flagged for a closer look

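TM4SF18 differed between the sublines of each genotype when these were tested against each other, by a log2 fold change of 2.64 for CDK8KO-C1 over CDK8KO-C2, -2.79 for CDK19KO-C1 over CDK19KO-C2 and -0.24 for DKO-C1 over DKO-C2. TM4SF1 differed between DKO-C1 and DKO-C2 by -1.48. WWTR1 differed between the same pairs, by 0.42 for CDK8KO, -1.67 for CDK19KO and -0.22 ± 0.0539 for DKO. The WWTR1 difference between DKO sublines was not called in a fit of only the libraries compared (adjusted p = 0.0928) or with the ERCC scaling (adjusted p = 0.0541), in a range over alternatives of 7.07e-05 to 0.0928. The JQ1 response of WWTR1 differed between DKO-C1 and HCT116 by -0.40.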

How the results depend on the processing

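With ERCC factors in place of TMM, the log2 fold change of TM4SF18 over HCT116 was 1.24 in CDK8KO, 2.59 in CDK8KO-C1, 5.72 in DKO, 5.49 in DKO-C1 and 5.95 in DKO-C2; it turned to -0.12 in CDK8KO-C2 and -0.89 in CDK19KO-C1. For JQ1 in DKO-C1 it was -5.68 for TM4SF18 and -3.11 for TM4SF1, and the log2 lower bounds of TM4SF1 over HCT116 were 7.38 in DKO-C1 and 9.07 in DKO-C2. Turned to falls with these factors were HPS3 (-0.34), TSC22D2 (-0.32), COMMD2 (-0.48) and HLTF (-0.61) in DKO, WWTR1 in CDK19KO-C2 (-0.45), and WWTR1 in DKO-C1+JQ1 against HCT116+JQ1 (-0.13). These factors rescale all genes of a library together.

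Genes called with ERCC factors were 16277 for CDK8KO (6968 with TMM), 15805 for CDK8KO-C1 (6736), 16194 for CDK8KO-C2 (5840), 16855 for CDK19KO (7391), 16821 for CDK19KO-C1 (7926), 16567 for CDK19KO-C2 (7293) and 14995 for DKO-C1 (9610). They were 13894 for DKO-C1+JQ1 against HCT116+JQ1 (8036), 142 for the difference of JQ1 responses (1478), 966 between the CDK8KO sublines (3636), 5209 between those of CDK19KO (8247) and 966 between those of DKO (1620). A fit of only the libraries compared called 693 genes between the DKO sublines. The split of higher and lower calls moved as well: with ERCC factors 585 genes were higher and 14333 lower in DKO, against 5067 and 5519 with TMM.

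Leaving out each library in turn gave -5.58 to -5.25 for TM4SF18 under JQ1 in DKO-C1, where 1 library then stands for DKO-C1+JQ1 and is assumed to vary like the other groups. The log2 bounds of TM4SF1 ranged from 7.79 to 8.41 in DKO-C1 and from 9.27 to 9.88 in DKO-C2, since fewer control libraries raise the limit set by 0 counts. Genes called ranged from 921 (without DKO-C1+JQ1 replicate 1) to 1446 for the difference of JQ1 responses and from 982 (without DKO-C1 replicate 1) to 2101 (without DKO-C2 replicate a) between DKO sublines.

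Replicate numbers did not pair the samples: same-numbered libraries correlated at -0.0629 to 0.0747 in their deviations, and 8 of 21 libraries were closest to their own number. With the replicate number as a block, over the 22 libraries that carry one, the JQ1 value in DKO-C1 was -5.22 for TM4SF18 and -2.88 for TM4SF1, from 1 library of DKO-C1+JQ1, and 7346 genes were called for CDK8KO and 9936 for DKO-C1, against 7421 and 9988 in the same 22 libraries without the block. The likeness of TM4SF1 and TM4SF18 was 0.917 over the untreated groups and 0.845 as Spearman's rho. The causes of these changes were not tested.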

Other observations

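UBQLN4P1, a processed pseudogene on the same strand at -390.2 kb from the 5′ end of TM4SF1, was the neighbour with the largest fall in the double knockout. It averaged 0.758 ± 0.103 CPM in DKO-C1 and 0.909 ± 0.158 CPM in DKO-C2, against 21.1 ± 0.356 CPM in HCT116 (SD, n = 3 each). The log2 fold change in DKO was -4.66 ± 0.113 (adjusted p = 6.43e-30), and -5.56 with the ERCC scaling. In the single knockouts it stayed between 19.6 CPM in CDK19KO-C2 and 26.01 CPM in CDK19KO-C1. GYG1, whose 5′ end lies next to it, was at 50.4 CPM in DKO and 42.7 CPM in HCT116. Reads of a pseudogene can be split with those of its parent gene, so its level is uncertain.

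ITGA6, the alpha 6 integrin subunit that pairs with ITGB4 in hemidesmosomes, differed between the CDK19KO sublines in the direction of TM4SF18 and WWTR1. Its mean was 22.9 CPM in CDK19KO-C1 against 275 CPM in CDK19KO-C2, a log2 fold change of -3.59 ± 0.0719 (adjusted p = 3.32e-31) that kept its direction with the ERCC scaling, at -3.81. Against HCT116, at 210 CPM, ITGA6 fell in CDK19KO-C1 (-3.20 ± 0.0719, adjusted p = 5.32e-29) and rose in CDK19KO-C2 (0.39 ± 0.0592, adjusted p = 1.29e-06), where it was lower with the ERCC scaling, at -1.15. ITGB8 also differed between these sublines, at means of 5.35 CPM in CDK19KO-C1 against 20.6 CPM in CDK19KO-C2 (-1.94 ± 0.120, adjusted p = 3.30e-16). Of the 33 tested tetraspanin and integrin genes, 8 were higher and 13 lower in CDK19KO-C1. With the ERCC scaling 1 was higher and 13 lower. Of all tested genes 23.8% were higher and 24.2% lower there with TMM.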
